A study of Homo sapiens with 4 samples.

Results

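The genes described are ALB, AFP, AMBP, FGA, FGB, FGG, TTR, TF, SERPINA1 and AHSG, which encode abundant proteins that hepatocytes release into blood plasma, with alpha-fetoprotein as the fetal member. They were chosen by gene name, and all 10 were found among the 39306 gene names of the tables. The samples were 4 libraries of MHCC97H, a human liver cancer line established for its strong tendency to metastasise, sequenced as ribosomal RNA-depleted total RNA. The 2 knockdown libraries came from sh-HNRNPM cells, in which a hairpin RNA targets HNRNPM, the gene of the RNA-binding splicing regulator heterogeneous nuclear ribonucleoprotein M, and the 2 control libraries came from wild-type MHCC97H cells. No control hairpin is named for the wild-type cells, and the labels leave unstated if 1 hairpin served both knockdown libraries and if replicates were separate cultures. Effects of carrying a hairpin and of losing HNRNPM therefore cannot be told apart, and the p-values rest on library-to-library spread alone, which may be technical.

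Hepatocytes make most plasma proteins and secrete them through the endoplasmic reticulum and Golgi. Transcription of these genes is driven in liver by factors such as HNF4A, FOXA proteins and C/EBP proteins, and the fibrinogen chains and alpha-1-antitrypsin are also acute phase proteins that respond to interleukin-6 through STAT3. ALB and AFP are neighbouring copies of an ancestral albumin-family gene, and AFP is high in fetal liver, silent in adult liver and expressed again in many liver cancers.

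The recovered depth was 12708165 and 11498663 reads in the knockdown libraries and 18317579 and 19659106 reads in the control libraries. HNRNPM itself was measured at 21.8 and 20.4 RPKM in knockdown cells, against 51.3 and 51.6 RPKM in control cells, where RPKM is reads per kilobase of annotated exon, scaled to the assigned reads of the library. The difference was -1.35 ± 0.07 on the log2 scale (SE; limma adjusted p = 0.00270), and 345 bp of its exons overlap another gene. Across the transcriptome 24.9% of 20221 tested genes were called at an adjusted p below 0.05, 13.8% lower and 11.1% higher in knockdown cells. Hepatocyte identity of the line is partial. Of 20 hepatocyte markers measured, 12 stayed below 1 RPKM in every library, and their summed level was 58.2 and 54.9 RPKM in knockdown cells and 53.7 and 50.6 RPKM in control cells. Of the 12 tested, 3 were lower (ALB, APOB and TDO2) and 2 higher (HPD and ASS1), and without 1 library 1 to 2 were lower and 1 to 2 higher. CPS1, G6PC and F9, which encode a urea cycle enzyme, glucose-6-phosphatase and coagulation factor IX, were at or near 0. Of the markers of other cell types, 8 of 9 fibroblast, 5 of 8 endothelial and 6 of 7 blood and macrophage markers were below 1 RPKM in every library. The summed fibroblast markers reached 3.76 and 3.75 RPKM in knockdown cells and 1.33 and 1.55 RPKM in control cells, mostly from LUM. LUM, COL1A1 and PDGFRB were called higher, 3 of 6 tested, and 1 was called without 1 library. COL1A1 and PDGFRB, with 5 or 6 reads in each control library, reached the reads needed for testing only in the knockdown libraries. The summed endothelial markers reached 12.2 and 12.4 RPKM in knockdown cells and 13.9 and 14.8 RPKM in control cells. PECAM1 and CDH5 were called lower, 2 of 5 tested, with 0 to 1 without 1 library. The blood and macrophage markers summed to 62.2 and 60.6 RPKM in knockdown cells and 47.5 and 58.8 RPKM in control cells, mostly from CD68, which was not called. CD14, the only called gene of the 2 tested, was lower, at 0.132 ± 0.00931 RPKM in knockdown cells and 0.784 ± 0.0787 RPKM in control cells (SD, n = 2 each; limma adjusted p = 0.00462). CD14 had 3 and 3 reads in knockdown cells and 29 and 27 reads in control cells. It reached the reads needed for testing only in the control libraries, so its p-value adds no support. The leukocyte marker PTPRC had 4 reads in knockdown replicate 1 and 0 in the other libraries. Cholangiocyte and progenitor markers summed to 624 and 616 RPKM in knockdown cells and 494 and 500.3 RPKM in control cells, with KRT7, KRT19 and SOX9 called higher, CD24 lower and 3 of 7 tested not called. KRT19 and SOX9 lost their calls when either knockdown library was left out (limma adjusted p up to 0.178 and 0.0908). Their part in the results below was not tested. In bulk RNA, fewer expressing cells and less RNA per cell cannot be told apart.

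Albumin, AMBP and the fibrinogen beta chain were lower in knockdown cells. The fibrinogen alpha chain was called lower just under the threshold, a call that most alternative settings lost. Transferrin, alpha-1-antitrypsin, AHSG, AFP and the fibrinogen gamma chain were tested and not called in the main fit. The 10 genes summed to 24.7 and 26.4 RPKM in the knockdown libraries, against 40.4 and 40.6 RPKM in the control libraries. In control cells AMBP was the highest, followed by TF, ALB, SERPINA1, FGB, FGA, FGG and AHSG, with AFP and TTR lowest. SERPINA1 and FGB overlapped between control libraries, as did AFP and TTR, so neither pair can be ordered. In knockdown cells TF was the highest, and SERPINA1 and AMBP overlapped behind it, followed by ALB, FGB, FGA, AHSG, FGG, AFP and TTR. TF made up 42.4% and 42.6% of the summed RPKM in knockdown cells, against 19.0% and 22.2% in control cells. AMBP made up 16.1% and 16.5% in knockdown cells, against 38.04% and 33.8% in control cells. The best rank of any of them was 3081 of 39306 names, for AMBP in control replicate 1, whereas in adult liver such genes are among the most abundant. ALB ranked 14298 and 14108 of 39306 names in the knockdown libraries and 7816 and 6899 in the control libraries.

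**Figure D1:**
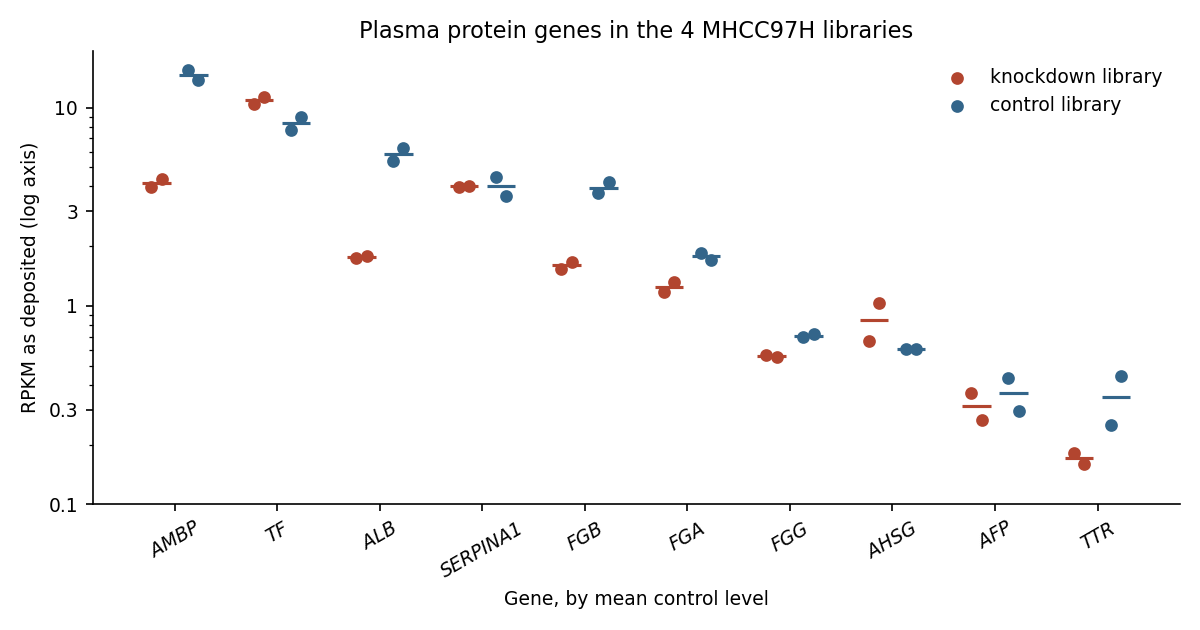
RPKM of each plasma protein gene in the 2 knockdown and 2 control libraries, on a log axis; points are libraries and bars are group means. AMBP, ALB and FGB show the widest gaps between the groups, with knockdown libraries below control libraries, and the SERPINA1 groups overlap.

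ALB encodes serum albumin, the main carrier protein of plasma (chromosome 4, positions 73397114 to 73421412 of GRCh38, plus strand, measured over 3377 bp of annotated exons). It was measured at 1.75 and 1.78 RPKM in knockdown cells, from 75 and 69 reads, against 5.35 and 6.28 RPKM in control cells, from 331 and 417 reads. Both knockdown libraries were below both control libraries, and the exact Poisson 95% intervals of the counts, 1.38 to 2.25 RPKM in knockdown replicate 2 and 4.79 to 5.96 RPKM in control replicate 1, did not meet. The knockdown level was 30.3% of the control level, a log2 fold change of -1.72 ± 0.13 (SE; limma adjusted p = 0.00366; 95% interval of the fold 0.242 to 0.379). Of all tested genes, 38 had a log2 fold change as low as that of ALB or lower.

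AFP starts 9725 bp downstream of ALB on the same strand (positions 73431138 to 73456174) and encodes alpha-fetoprotein, the serum marker of hepatocellular carcinoma. Its level was low in every library. It was measured at 0.362 and 0.267 RPKM in knockdown cells, from 15 and 10 reads, against 0.436 and 0.297 RPKM in control cells, from 26 and 19 reads. The groups overlapped, and the log2 fold change of -0.21 ± 0.24 was not distinguishable from 0 (SE; limma adjusted p = 0.557; 95% interval of the fold 0.569 to 1.31). The ratio of ALB to AFP within a library was 4.83 and 6.66 in knockdown cells and 12.3 and 21.2 in control cells. With a pseudocount of 0.1, its log2 value averaged 2.18 ± 0.25 in knockdown cells and 3.68 ± 0.47 in control cells (SD, n = 2 each), a difference of -1.50. The exact two-sided permutation test over libraries gave p = 0.3333, the smallest that 2 libraries against 2 allow, and 0.375 adjusted over the 9 gene ratios computed. Beside ALB and AFP, AFM, the next albumin-family gene, had too few reads to test (0.109 RPKM in knockdown and 0.0705 RPKM in control cells), and the flanking ANKRD17 (17.1 and 17.2 RPKM) and RASSF6 (1.89 and 1.27 RPKM in knockdown and control cells) were not called by limma (adjusted p = 0.505 and 0.0538), while limma-voom called RASSF6 higher (adjusted p = 0.00549). CXCL8, a chemokine gene farther along this chromosome region, was called higher, at 1.36 ± 0.0192 RPKM in knockdown cells and 0.554 ± 0.0706 RPKM in control cells (SD, n = 2 each; log2 fold change 1.11 ± 0.17, limma adjusted p = 0.0114), and lost its call when either knockdown library was left out. The 150 bases before the start sites of ALB (chr4:73404137-73404286, plus strand) and AFP (chr4:73436071-73436220, plus strand) are shown because ALB was called lower and its neighbour AFP was not, with GTTAAT sites (these letters on either strand) and CCAAT boxes (CCAAT on either strand) in capitals. The sequences are RefSeq's, of build GRCh38.p14, and the RefSeq start of ALB lies inside the longer gene span of the files.
ALB: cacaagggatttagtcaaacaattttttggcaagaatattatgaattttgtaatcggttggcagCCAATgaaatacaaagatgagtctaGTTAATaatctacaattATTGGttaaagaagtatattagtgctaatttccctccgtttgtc
AFP: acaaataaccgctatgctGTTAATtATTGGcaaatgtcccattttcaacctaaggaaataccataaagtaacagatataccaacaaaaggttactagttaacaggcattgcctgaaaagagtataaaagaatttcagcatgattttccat
Both windows hold a GTTAAT site followed by a CCAAT box on the other strand, 61 bases before the start in ALB and 132 bases before it in AFP.

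FGA, FGB and FGG encode the alpha, beta and gamma chains of fibrinogen, the precursor of the fibrin clot, which assemble in equal numbers. They lie within 50012 bp of chromosome 4, in the order FGB (positions 154562956 to 154571086, plus strand), FGA (154583126 to 154590766, minus strand) and FGG (154604134 to 154612967, minus strand). FGB was measured at 1.54 and 1.67 RPKM in knockdown cells, from 53 and 52 reads, against 3.71 and 4.19 RPKM in control cells, from 184 and 223 reads. It fell to 40.6% of the control level, with a log2 fold change of -1.31 ± 0.13 (SE; limma adjusted p = 0.00524; 95% interval of the fold 0.320 to 0.510). FGA had 1.17 and 1.32 RPKM in knockdown cells, from 59 and 60 reads, against 1.85 and 1.71 RPKM in control cells, from 134 and 133 reads. The groups did not overlap, and the log2 fold change of -0.54 ± 0.15 lay just under the threshold (SE; limma adjusted p = 0.04999). FGG had 0.568 and 0.556 RPKM in knockdown cells, from 26 and 23 reads, against 0.698 and 0.721 RPKM in control cells, from 46 and 51 reads. Both knockdown libraries of FGG were below both control libraries, but the difference, -0.34 ± 0.17 on the log2 scale, missed the threshold (SE; limma adjusted p = 0.183; 95% interval of the fold 0.590 to 1.05).

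The 3 chains thus had estimates of one sign and unequal size. The ratio of FGB to FGA was 1.31 and 1.27 in knockdown cells and 2.01 and 2.45 in control cells, and that of FGB to FGG was 2.71 and 3.01 in knockdown cells and 5.32 and 5.81 in control cells. The ratio of FGA to FGG was 2.07 and 2.37 in knockdown cells and 2.65 and 2.37 in control cells, so the groups overlapped in this ratio. On the log2 scale with a pseudocount of 0.1 the knockdown minus control differences of these ratios were -0.76 for FGB to FGA, -0.96 for FGB to FGG and -0.19 for FGA to FGG, each with an exact permutation p of 0.3333. The call for FGA was lost without any one of the 4 libraries (limma adjusted p = 0.0969 to 0.168) and under other scalings. PLRG1, a spliceosome gene beside FGB, was at 7.89 RPKM in knockdown and 9.64 RPKM in control cells. Limma did not call it (adjusted p = 0.0621), while limma-voom called it lower (log2 fold change -0.35, adjusted p = 0.00533). LRAT, another gene near the cluster, was at 0.425 and 0.530 RPKM in knockdown and control cells. Neither fit called LRAT (limma adjusted p = 0.321, limma-voom adjusted p = 0.237). The 150 bases before the start sites of FGB (chr4:154562830-154562979, plus strand, the first of 2 annotated starts), FGA (chr4:154590743-154590892, minus strand) and FGG (chr4:154612657-154612806, minus strand) are shown to set the 3 chains side by side, with the same motifs in capitals.
FGB: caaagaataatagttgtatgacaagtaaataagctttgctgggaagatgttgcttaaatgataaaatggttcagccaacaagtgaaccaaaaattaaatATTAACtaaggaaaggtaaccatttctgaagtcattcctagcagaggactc
FGA: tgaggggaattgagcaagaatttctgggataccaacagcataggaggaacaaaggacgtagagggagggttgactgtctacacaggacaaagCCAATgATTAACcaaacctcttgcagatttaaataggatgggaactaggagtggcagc
FGG: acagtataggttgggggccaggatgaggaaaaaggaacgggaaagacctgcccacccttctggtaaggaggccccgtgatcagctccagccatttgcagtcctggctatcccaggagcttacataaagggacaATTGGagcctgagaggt
FGB and FGA hold a GTTAAT site on the reverse strand, 51 and 52 bases before the start, and FGG has no such letters in its 250-base window. Counted from the second annotated FGB start, the FGB site lies 82 bases before it.

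AMBP, on chromosome 9 (positions 114060127 to 114078472, minus strand), encodes a precursor that is cleaved into alpha-1-microglobulin, a heme-binding lipocalin, and bikunin, a protease inhibitor. It had the lowest log2 fold change of the 10 genes. It was measured at 3.97 and 4.35 RPKM in knockdown cells, from 103 and 102 reads, against 15.4 and 13.7 RPKM in control cells, from 575 and 550 reads. The knockdown level was 28.6% of the control level, with no overlap between the groups and a log2 fold change of -1.84 ± 0.10 (SE; limma adjusted p = 0.00285; 95% interval of the fold 0.234 to 0.331). The ratio of ALB to AMBP was 0.440 and 0.409 in knockdown cells and 0.348 and 0.458 in control cells, so the groups overlapped for this pair. Bikunin is joined to heavy chains of the inter-alpha-trypsin inhibitor, and the heavy chain gene ITIH2 fell as well, to 29.002 and 28.3 RPKM in knockdown cells, against 51.7 and 64.2 RPKM in control cells (log2 fold change -1.07 ± 0.12, limma adjusted p = 0.00562). The related genes ITIH3 and ITIH4 were at 0.1399 and 0.153 RPKM in knockdown cells and 0.0495 and 0.131 RPKM in control cells. Limma called neither (adjusted p = 0.0827 and 0.825), while limma-voom called ITIH3 higher (log2 fold change 1.45, adjusted p = 0.0244). ITIH3 had only 10 and 10 reads in knockdown cells and 7 and 4 reads in control cells. It reached the reads needed for testing only in the knockdown libraries, so its limma-voom call adds no support.

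SERPINA1 encodes alpha-1-antitrypsin, the inhibitor of neutrophil elastase (chromosome 14, positions 94376747 to 94390693, minus strand). It was measured at 3.98 and 4.03 RPKM in knockdown cells, from 248 and 227 reads, against 4.47 and 3.60 RPKM in control cells, from 401 and 347 reads. The knockdown libraries lay between the control libraries, and the log2 fold change of -0.064 ± 0.13 was not distinguishable from 0 (SE; limma adjusted p = 0.748; 95% interval of the fold 0.763 to 1.20). That interval leaves out a fall of the size measured for ALB. The ratio of ALB to SERPINA1 was 0.439 and 0.441 in knockdown cells and 1.20 and 1.74 in control cells. In the serpin cluster beside it, SERPINA6, which encodes corticosteroid-binding globulin, fell to 1.45 and 1.55 RPKM in knockdown cells, against 2.51 and 2.42 RPKM in control cells (log2 fold change -0.74 ± 0.13, limma adjusted p = 0.0161). SERPINA6 did not pass without knockdown replicate 1, knockdown replicate 2 or control replicate 1 (highest limma adjusted p = 0.0687). SERPINA3 (0.681 RPKM in knockdown and 0.441 RPKM in control cells) and SERPINA5 (0.537 and 0.513 RPKM) of this cluster were not called by limma (adjusted p = 0.124 and 0.972). Limma-voom called SERPINA3 higher (adjusted p = 0.0488). The AMBP window (chr9:114078301-114078450, minus strand) and the second SERPINA1 window (chr14:94388603-94388752, minus strand) are shown because one gene fell and the other did not.
AMBP: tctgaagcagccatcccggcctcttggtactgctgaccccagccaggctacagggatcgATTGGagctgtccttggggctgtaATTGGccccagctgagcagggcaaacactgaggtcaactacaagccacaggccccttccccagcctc
SERPINA1: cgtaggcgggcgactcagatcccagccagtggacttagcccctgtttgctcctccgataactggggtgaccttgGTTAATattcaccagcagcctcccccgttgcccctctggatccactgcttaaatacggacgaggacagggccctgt
The AMBP window has CCAAT boxes and no GTTAAT site, and this SERPINA1 window has a GTTAAT site 76 bases before the start and no CCAAT box.

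TF encodes transferrin, which carries iron in plasma (chromosome 3, positions 133745956 to 133779006 in the files, plus strand). Its exons share 191 bp with the pseudogene TFP1, so some of its reads are uncertain. It was the gene of the group with the most reads. It was measured at 10.5 and 11.3 RPKM in knockdown cells, from 1139 and 1109 reads, against 7.69 and 9.003 RPKM in control cells, from 1206 and 1516 reads. Both knockdown libraries were above both control libraries, by 0.32 ± 0.11 on the log2 scale, which missed the threshold (SE; limma adjusted p = 0.0895). Limma-voom on the recovered reads, which weighs genes by depth, called it higher (log2 fold change 0.32 ± 0.09, limma-voom adjusted p = 0.00682), against 16.2% of all tested genes called higher by that fit. The ratio of ALB to TF was 0.167 and 0.158 in knockdown cells and 0.696 and 0.698 in control cells, a fold of 0.243 between the groups. The ratio of AMBP to TF was 0.379 and 0.386 in knockdown cells and 2.00 and 1.52 in control cells, with an exact permutation p of 0.3333 for this and the ALB ratio.

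AHSG, also on chromosome 3 (positions 186612923 to 186621318, plus strand), encodes fetuin-A, an inhibitor of mineral deposition. It was measured at 0.669 and 1.03 RPKM in knockdown cells, from 20 and 28 reads, against 0.603 and 0.605 RPKM in control cells, from 26 and 28 reads. The groups did not overlap, but the log2 fold change of 0.35 ± 0.24 was not distinguishable from 0 (SE; limma adjusted p = 0.318). Without knockdown replicate 2 it was 0.047. Its neighbour KNG1, which encodes kininogen, fell to 0.105 and 0.163 RPKM in knockdown cells, from 5 and 7 reads. In control cells it was at 0.409 and 0.354 RPKM, from 28 and 26 reads (log2 fold change -1.09 ± 0.22, limma adjusted p = 0.0231). It reached the reads needed for testing only in the control libraries, so its p-value adds no support. KNG1 shares 637 bp of exons with another gene, and in the 2 fits that could test it without 1 library it lost its call without knockdown replicate 1 (limma adjusted p = 0.0879). TTR, on chromosome 18 (positions 31591726 to 31599021 in the files, plus strand), encodes transthyretin, the carrier of thyroxine and of retinol-binding protein. It had 5 and 4 reads in knockdown cells and 10 and 19 reads in control cells, too few for the test. These reads correspond to 0.181 and 0.160 RPKM in knockdown cells and 0.251 and 0.445 RPKM in control cells. The knockdown libraries were lower by 0.74 on the log2 scale. The exact Poisson 95% intervals of knockdown replicate 1 (0.0588 to 0.423 RPKM) and control replicate 1 (0.120 to 0.462 RPKM) overlapped. The fit without a filter, which tested TTR, did not call it (-0.74 ± 0.38, SE, limma adjusted p = 0.377).

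**Figure D2:**
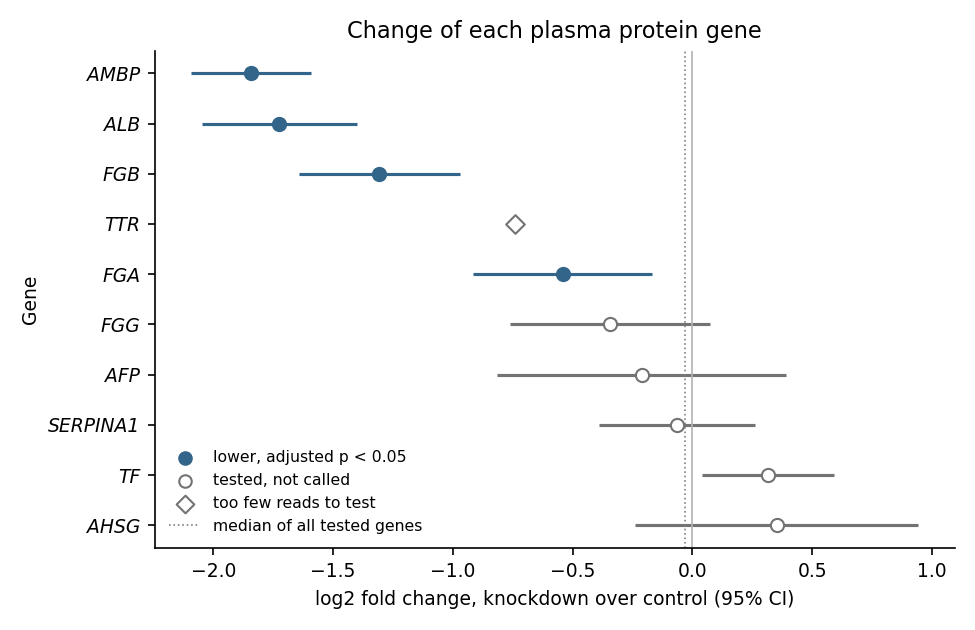
Log2 fold change, knockdown over control, with its unadjusted 95% interval for each plasma protein gene. AMBP, ALB, FGB and FGA, as filled points, were called lower. TTR, as a diamond without an interval, had too few reads, and the interval of TF lies above 0 although its adjusted p did not pass.

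Of the 9 genes tested, 4 were called lower (AMBP, ALB, FGB and FGA), 0 higher and 5 were not called, against 13.8% of all tested genes called lower, 11.1% higher and 24.9% either way. Limma-voom called the same 4 lower and TF higher, where 19.6% of all tested genes were lower, 16.2% higher and 35.8% either way. Among members not called, in the limma fit TF alone had an unadjusted p under 0.05, at 0.0311. The groups did not overlap in 7 of the 9, against 67.6% of all tested genes (36.6% lower and 31.0% higher), which is a like share. The median log2 fold change of the 9 was -0.34, against -0.031 over all tested genes. The genes were listed with earlier results of these data known, so these counts describe the list. Without any 1 library, AMBP, ALB and FGB were called lower in each of the 4 fits, with limma adjusted p-values of 0.00648 to 0.0305.

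**Figure D3:**
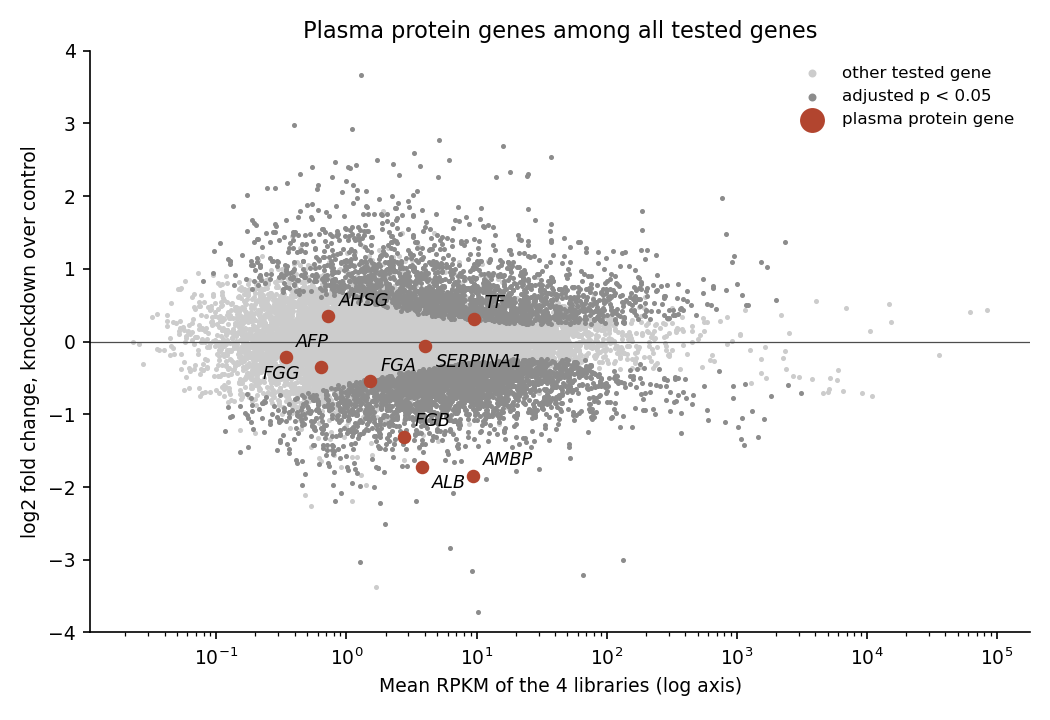
Mean RPKM of the 4 libraries on a log axis against the log2 fold change, knockdown over control, for each tested gene, with 2 genes outside the axis range. Plasma protein genes are labelled. AMBP and ALB lie at the lower edge of genes of their level, at -1.84 and -1.72, while TF, at a mean level near that of AMBP, lies at 0.32.

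The windows of 250 bases before the RefSeq start sites were searched for 8 short motifs on both strands. Entries were found for 9 of the 10 genes, with 12 windows in all, since FGB, TF and SERPINA1 have 2 starts each. The letters GTTAAT were in 6 of the 12 windows (ALB, AFP, FGA, both overlapping FGB windows and the second SERPINA1 window), against 6.23% of 35116 windows of all genes. The C/EBP-type site TTGCNNAA was in 7 windows (ALB, AFP, FGA, both FGB windows, the second TF window and AHSG), against 9.05% of all windows. CCAAT was in 8 windows, against 32.0%. The type II IL-6 response element CTGGGAA was in both FGB windows and in FGG, against 9.15%, and the STAT-type site TTCNNNGAA was in FGA alone, against 6.57%. TGTTTNC, a FOXA-type site, was in 5 windows, against 15.5%, AGGTCA, a nuclear receptor-type site, in 3, against 12.1%, and TATAAA in AFP alone, against 10.7%. The GTTAAT site was present both in genes called lower (ALB, FGA, FGB) and in genes that were not called (AFP, SERPINA1), and AMBP, with the lowest fold change, had none. A match is a run of letters and was not shown to be bound. The motifs were chosen after these sequences were seen, so a share above that of all windows is no test. The windows were also not matched for GC content, whose median over all windows was 60% in the 150 bases before the start. Among windows with GTTAAT it was 31.3% to 46.0% in ALB, AFP, FGA and FGB and 58.7% in SERPINA1.

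**Figure D4:**
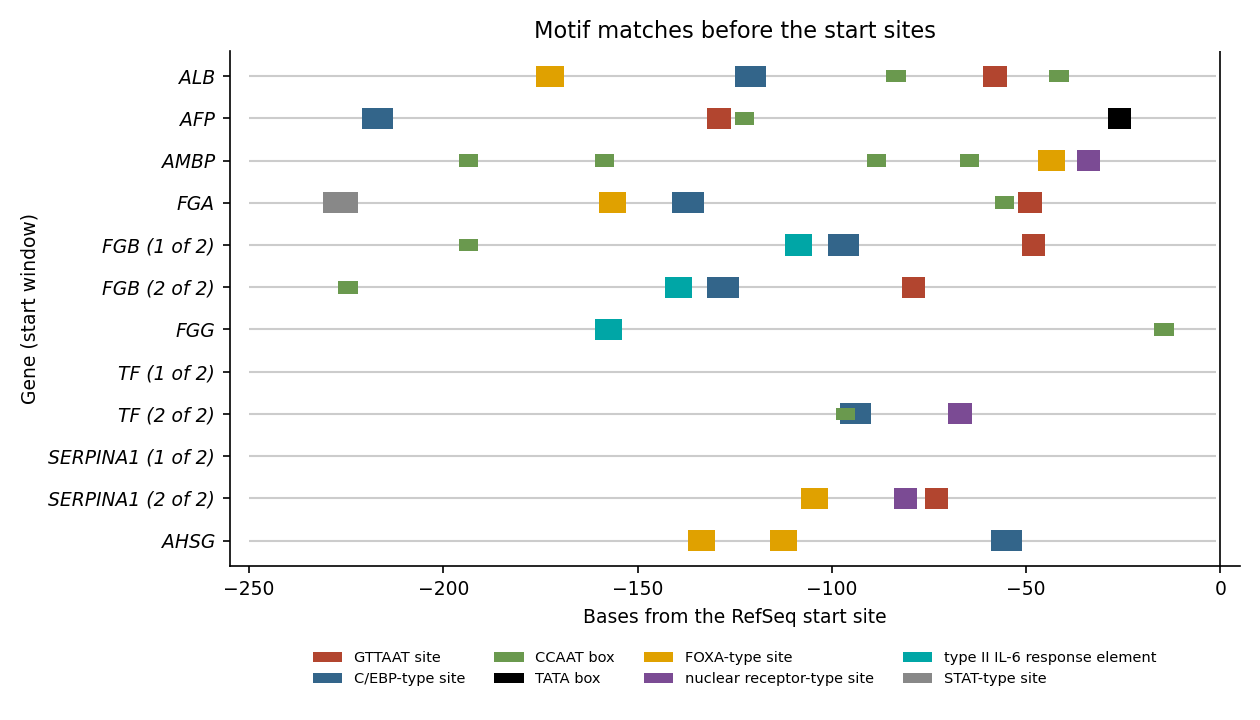
Motif matches, drawn to scale, in the 250 bases before each RefSeq start site (bases from the start on the horizontal axis, 1 line per start window). GTTAAT sites lie 46 to 132 bases before the start in ALB, AFP, FGA, FGB and the second SERPINA1 window, and no motif was found in the first TF and SERPINA1 windows.

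Among liver transcription factors and AFP regulators, CEBPB, CEBPD and ATF5 rose. CEBPB reached 74.8 and 75.5 RPKM in knockdown cells, against 46.2 and 43.4 RPKM in control cells (log2 fold change 0.68 ± 0.07, limma adjusted p = 0.00462). CEBPD reached 17.4 and 17.6 RPKM in knockdown cells, against 6.97 and 8.43 RPKM in control cells (1.12 ± 0.11, limma adjusted p = 0.00503), and ATF5, a C/EBP-related stress factor, rose by 0.73 ± 0.06. NR1H4, the bile acid receptor, rose by 0.56 ± 0.10 (limma adjusted p = 0.0176) but lost its call when either knockdown library was left out. Both CEBPB and ATF5 overlap exons of other genes. Limma-voom called FOXA2 higher (adjusted p = 0.00750) and HNF4G, FOXA1 and ONECUT2 lower (adjusted p = 0.00767, 0.0213 and 0.00242). Limma called none of these (adjusted p = 0.0534 to 0.0917). Neither fit called FOXA3 (limma adjusted p = 0.151, limma-voom adjusted p = 0.201). HNF4A (7.68 RPKM in knockdown and 6.41 RPKM in control cells), CEBPA (30.2 and 33.1 RPKM) and the AFP repressors ZHX2 (2.10 and 2.16 RPKM) and ZBTB20 (4.22 and 3.93 RPKM) were not called (limma adjusted p = 0.143 to 0.803). Over all tested genes limma called 11.1% higher and 13.8% lower, with a median of -0.031, and limma-voom called 16.2% higher and 19.6% lower. Of 22 tested liver transcription factors and AFP regulators, limma called 5 higher, 0 lower and 17 neither way, with a median log2 fold change of 0.20, while 3 were lower at an unadjusted p under 0.05. Limma-voom called 8 higher and 3 lower, and limma without 1 library called 3 to 4 higher and 0 to 1 lower.

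In the interleukin-6 pathway, which raises fibrinogen synthesis in hepatocytes, genes moved in both directions. IL6R, the ligand-binding receptor, fell to 4.21 and 3.87 RPKM in knockdown cells, against 8.23 and 8.30 RPKM in control cells (log2 fold change -1.08 ± 0.09, limma adjusted p = 0.00415). SOCS3, a STAT3-induced inhibitor of the receptor, rose to 15.02 and 13.1 RPKM in knockdown cells, against 4.93 and 5.02 RPKM in control cells (1.41 ± 0.10, limma adjusted p = 0.00314). SOCS1, a related inhibitor, was at 0.642 and 0.710 RPKM in knockdown cells, from 10 and 10 reads. In control cells it was at 0.178 and 0.166 RPKM, from 4 and 4 reads (1.46 ± 0.19). It reached the reads needed for testing only in the knockdown libraries, so its call adds no support. BCL3, an NF-kB cofactor, rose by 0.72 ± 0.07. IL6ST was also called lower (-0.36 ± 0.08, limma adjusted p = 0.0350). STAT3 itself (0.33 ± 0.08, limma adjusted p = 0.0334) and CISH (0.57 ± 0.13, limma adjusted p = 0.0318) were called higher, and PIAS3 was not called (limma adjusted p = 0.0965). Over all tested genes 11.1% were higher and 13.8% lower, with a median of -0.031. Of 16 tested genes of this list 5 were higher, 2 lower and 9 not called, with a median of 0.13. Without 1 library, 2 to 3 were higher and 1 to 2 lower.

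Other plasma protein genes moved in both directions. Of 26 tested plasma protein and acute phase genes limma called 5 lower, 1 higher and 20 neither way. Their median log2 fold change was -0.071, against -0.031 over all tested genes, of which 13.8% were lower and 11.1% higher. Limma-voom called 7 lower, HABP2 and FGL1 among them, and 4 higher, ITIH3 and SERPINF2 among them. That fit called 19.6% of all tested genes lower and 16.2% higher. Besides ITIH2, SERPINA6 and KNG1, the genes limma called lower were CPN1, which encodes a carboxypeptidase N subunit, and AGT, which encodes angiotensinogen. CPN1 was at 0.167 and 0.138 RPKM in knockdown cells, from 4 and 3 reads. In control cells it was at 0.810 and 0.566 RPKM, from 28 and 21 reads. The log2 fold change was -1.67 ± 0.23 (limma adjusted p = 0.00826). CPN1, like KNG1, reached the reads needed for testing only in the control libraries, where both were high. Their p-values and calls therefore add no support to these counts. The gene that limma called higher was IGFBP1, a secreted insulin-like growth factor binding protein. It was at 89.0 and 92.4 RPKM in knockdown cells, against 33.0 and 34.0 RPKM in control cells (1.37 ± 0.07, limma adjusted p = 0.00270). CP, which encodes ceruloplasmin, averaged 100.2 RPKM in knockdown and 86.3 RPKM in control cells and was not called (limma adjusted p = 0.375). Of the 41 genes measured in this list, 27 stayed below 1 RPKM in every library, among them HP, HPX, SAA1 and GC. Without 1 library, 2 to 4 were lower and 1 to 3 higher.

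Among genes that handle iron and retinol, the receptor genes TFRC and STRA6 fell. TFRC, the transferrin receptor, fell to 37.1 and 37.4 RPKM in knockdown cells, against 74.6 and 75.9 RPKM in control cells (log2 fold change -1.07 ± 0.06, limma adjusted p = 0.00298), and STRA6, a receptor for retinol-binding protein, fell by 0.73 on the log2 scale, with 540 bp of its exons shared with CCDC33. STEAP3, a ferrireductase, fell by 0.43 but did not pass without either of the knockdown libraries. FTH1, the ferritin heavy chain, rose by 1.09 ± 0.15, but it has many processed copies, shares 1267 bp with BEST1 and lost its call when either knockdown library was left out (limma adjusted p up to 0.0695). In this list 5 of 12 tested genes were lower, 1 was higher and 6 were not called, including TF, and without 1 library 2 to 4 were lower and 0 to 3 higher. RBP4, the retinol-binding protein that TTR carries, was at 4.25 RPKM in knockdown and 5.25 RPKM in control cells (limma adjusted p = 0.135). Over all tested genes 13.8% were lower and 11.1% higher, with a median of -0.031, to set beside this list and the next. Of 16 genes for receptors, endoplasmic reticulum folding and export of secreted proteins, 11 were lower, 0 higher and 5 not called, with a median of -0.46. Without 1 library, the number called lower ran from 3 to 13. The chaperone HSPA5 was at 79.9 and 77.1 RPKM in knockdown cells, against 114 and 117 RPKM in control cells (-0.62 ± 0.07, limma adjusted p = 0.00537). The disulfide isomerase PDIA4 and the processing protease FURIN fell by 0.84 and 0.92, and SEL1L, which exports misfolded proteins for degradation, fell by 0.56, a call that was lost when either knockdown library was left out.

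Of 20 tested genes that lie near the 10 genes on their chromosomes 4 were lower, 2 were higher and 14 were not called, with a median of -0.087, and without 1 library 0 to 1 were lower and 0 to 2 higher. Over all tested genes 13.8% were lower and 11.1% higher, with a median of -0.031. The called genes of this list were CXCL8 and RAB6B, higher, and SERPINA6, KNG1, SRPRB and B4GALT6, lower. The KNG1 call adds no support, since KNG1 reached the reads needed for testing only in the control libraries. B4GALT6, a galactosyltransferase gene near TTR, was at 2.05 ± 0.0310 RPKM in knockdown cells and 3.125 ± 0.272 RPKM in control cells (SD, n = 2 each; limma adjusted p = 0.0225). Its call was lost in 3 of the 4 fits without 1 library, all but that without control replicate 1.

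**Figure D5:**
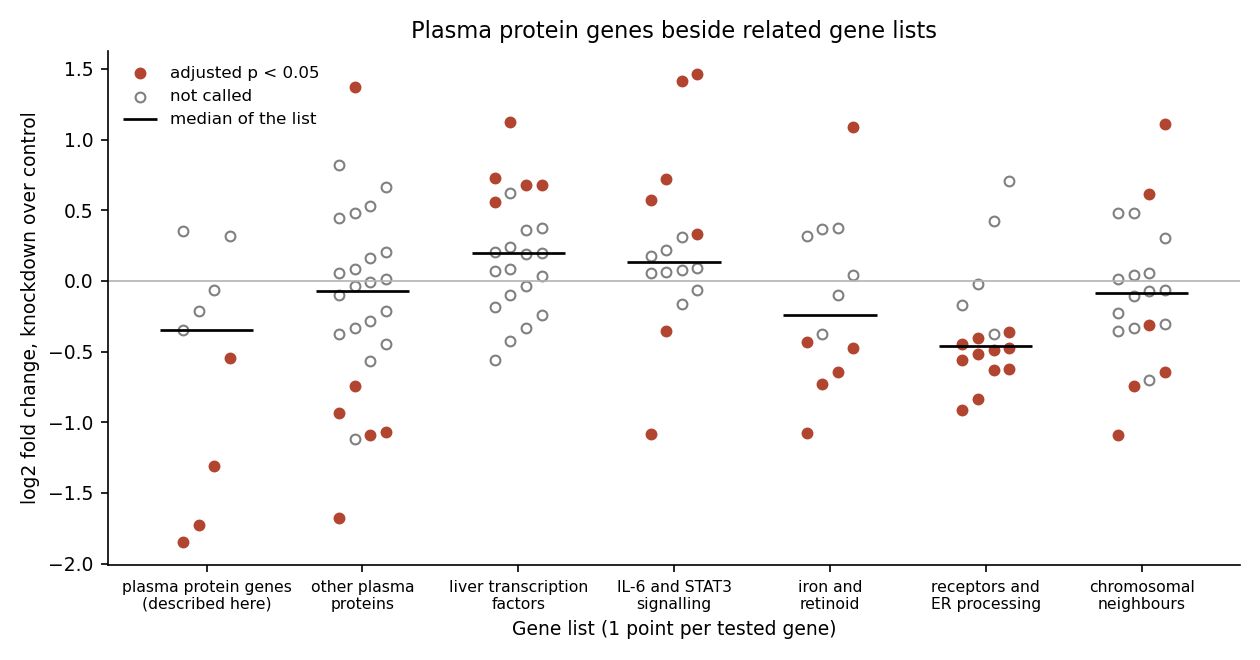
Log2 fold change, knockdown over control, of each tested gene in 7 lists, with filled points for genes called at an adjusted p below 0.05 and bars for list medians. The plasma protein genes spread from -1.84 to 0.35. Of the 16 genes of receptors and endoplasmic reticulum processing, 11 were called lower, against 13.8% of all tested genes.

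Over the 4 libraries the genes with a mean of at least 1 RPKM whose centred log2 levels lay nearest to those of ALB were TLR1, RP11-423F24.3 and AC074338.4, at Euclidean distances of 0.0570, 0.0803 and 0.128 among 17222 genes compared. TLR1, a Toll-like receptor, was at 1.25 and 1.25 RPKM in knockdown cells, against 3.91 and 4.36 RPKM in control cells. RP11-423F24.3 and AC074338.4 had 1 to 20 reads per library. With 4 libraries this likeness describes only the difference between the groups.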

How the data were processed

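Tools named in the submitters' processing notes are edgeR 3.12.1, StringTie 1.3.2, Trimmomatic 0.36, Subread 1.5.1 and featureCounts. Per the file headers, the authors deposited 1 RPKM value per gene name and library. The aligner, strand setting and use of the molecular identifiers could not be read from these sources. Although mm9 is the build noted, the coordinates are human GRCh38: of 26436 names found once in GENCODE 29, 93.4% had the same start and end. RPKM times exon length gave whole reads for 100% of values, within 0.01 of a read.

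RPKM values were divided by TMM factors and tested as log2(RPKM + 0.1) in limma 3.58.1 (R 4.3.3) with a mean-variance trend, a model of group alone and Benjamini-Hochberg adjustment over 20221 genes with the equivalent of 10 reads in 2 libraries and 15 reads in all. RPKM values are as deposited, with SDs over 2 libraries. The pseudocount understates changes of low genes. The fit has 2 residual and 3.56 prior degrees of freedom. The fitting script was tested on simulated data. Poisson intervals cover counting error only. Promoter letters are from RefSeq (GRCh38.p14). Motifs were chosen after those sequences were seen, and the gene group and lists with earlier results of these data known. A gene of the transcription factor list is not reported here. Named from each list were up to 4 called genes with the smallest adjusted p and the 3 genes nearest ALB in pattern, and others named were chosen after their values were seen. Alternatives were 2 pseudocounts, 2 filters, 2 scalings, limma-voom, robust moderation, a replicate block and leaving out each library.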

Additional observations from a re-analysis of the deposited data

How the results depend on the processing

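ALB, AMBP, FGB and HNRNPM kept their direction and call under all 13 alternatives. FGA, the call nearest the threshold, lost it with a pseudocount of 0.01 (-0.58), without a filter (-0.54), with median-of-ratios scaling (-0.52), with total-read scaling (-0.48), with robust moderation (-0.54) and in the fits without 1 library (-0.65 to -0.48). It kept the call with a pseudocount of 1, the stricter filter and limma-voom. TF, not called in the main fit, passed with the stricter filter (0.32, limma adjusted p = 0.0440), with limma-voom (0.32) and without control replicate 2 (0.44, limma adjusted p = 0.0476), and its estimates without 1 library ran from 0.20 to 0.44. SERPINA1 changed sign without control replicate 1 (0.078), with a range of -0.21 to 0.078 without 1 library. The number of genes called was 1806 without a filter, where 39306 names were tested, and 1439 to 3756 without 1 library, with the lowest counts without either knockdown library. With total-read scaling 55.5% of called genes were higher, against 44.5% in the main fit. The log2 FGB to FGG ratio difference was -0.79 with a pseudocount of 1. The ALB to AMBP ratio difference changed sign without control replicate 1 (-0.078), with a range of -0.078 to 0.31 without 1 library. The cause of these changes was not tested.

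The replicate numbers of the groups share only a number: same-numbered libraries did not deviate together (r = 0.024 across 17223 genes). With the replicate block 5129 genes were called, and FGA did not pass (-0.54, limma adjusted p = 0.0686). Counts of list genes and leaving libraries out of gene ratios were added after the data were seen. AFP and TTR are limited by depth, at 4 to 26 reads per library, and FGG and AHSG by 20 to 51 reads.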
